A study of Mus musculus with 6 samples.

Results

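Transcript clusters without a gene symbol were 33142 of the 65956 transcript clusters (50.2%) measured on arrays of mouse lung fibroblasts (LF). A transcript cluster is a set of probes that the array's maker summarises into 1 value for 1 transcribed stretch of the genome. A cluster was taken as unnamed when its identifier was missing from the platform's table that pairs probes with genes, and 0 clusters were listed there with an empty symbol. Of the unnamed clusters, 33121 carried an identifier that starts with TC and gives the chromosome in the next characters. The other 21 carried identifiers of another form. All 33142 were kept and tested with no filter on low values, and no measured value entered the choice. The other 32814 clusters carried at least 1 symbol and served for comparison, and 31292 of them carried a single one.

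The study asked how loss of Atf4 changes fibroblasts. There were 3 arrays of LF ATF4 KO and 3 arrays of LF ATF4 WT. The LF ATF4 KO cells came from Rosa26::CreERT2 mice with floxed Atf4 (exons 2 and 3 between loxP sites, fl/fl), and the LF ATF4 WT cells from Rosa26::CreERT2 mice with Atf4 WT/WT. The Rosa26 locus drives the recombinase in cell types at large, and per the study's methods the mice were young adults of both sexes, tissue of several animals was digested together, and cultures of both genotypes were grown with 4-hydroxytamoxifen, which activates CreERT2. The study describes tamoxifen-induced deletion as efficient but not complete where it discusses its mice, not these cultures. Cells were taken at passage 2, and total RNA was copied with both poly(T) and random primers, so RNA without a poly(A) tail could also give signal.

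Arrays of this kind carry probes for spliced genes and also for loci known only from single cDNAs, expressed sequence tags or predictions. Such loci are known to include long non-coding RNAs, stretches of introns, transcripts that run past the end of a gene, and repeats. ATF4 is the transcription factor through which the integrated stress response acts on its target genes. It drives amino acid synthesis and transport genes and, in fibroblasts, is known for its part in collagen synthesis.

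Atf4 itself had log2 values of 7.73, 7.49 and 7.48 in LF ATF4 KO and 8.67, 8.95 and 8.73 in LF ATF4 WT. It was lower by −1.22 on the log2 scale (s.e. 0.10, limma adjusted p = 0.000497), and the groups did not overlap. The arrays correlated at 0.997 to 0.998 within a group and at 0.988 to 0.993 between groups over all clusters. Marker genes of some cell types moved with genotype. The marker lists were chosen with earlier results of these data known, so their counts are descriptions and not independent tests. Of 22 measured leukocyte markers 22 were called higher, with array means of 13.1 to 13.6 in LF ATF4 KO and 10.5 to 10.9 in LF ATF4 WT and 0 markers below the array median. This list held genes of myeloid cells, such as Csf1r and Adgre1, or of leukocytes at large, such as Ptprc, and no marker of lymphocytes alone. Of 8 mesothelial markers 7 were called lower and 1 higher, with array means of 6.27 to 6.78 in LF ATF4 KO and 9.15 to 9.70 in LF ATF4 WT and 1 marker below the array median. Of 5 measured fibroblast markers 3 were called lower, with array means of 13.4 to 13.9 in LF ATF4 KO and 14.7 to 14.8 in LF ATF4 WT. Fewer epithelial and endothelial markers were called. Of 8 epithelial markers 2 were called lower and 1 higher, with array means of 4.89 to 5.05 in LF ATF4 KO and 4.99 to 5.04 in LF ATF4 WT. Of 7 measured endothelial markers 2 were called higher and 0 lower, with array means of 5.80 to 5.99 in LF ATF4 KO and 5.38 to 5.56 in LF ATF4 WT. In such bulk cultures, fewer cells of a type and less RNA per cell cannot be told apart.

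Unnamed clusters were dim as a class. The median of their mean log2 values was 4.60 (interquartile range 4.06 to 5.59), against 5.53 (4.40 to 8.47) for clusters with a symbol. At or above the median of all clusters, 4.90, lay 39.8% of the unnamed clusters and 60.3% of those with a symbol. Within each array, the median of the unnamed clusters was below that of the named ones by −0.94, −0.95 and −0.93 in LF ATF4 KO and by −0.91, −0.90 and −0.90 in LF ATF4 WT. This gap was wider in LF ATF4 KO by −0.03, with no overlap between groups (two-sided exact permutation test, p = 0.1, the smallest that 3 arrays against 3 allow). Brightness depends on each probe's sequence as well as on RNA amount, so these levels do not order the clusters by abundance.

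The brightest unnamed clusters were near the top of the scale on every array. TC0100002078.mm.1 had 18.80, 18.76 and 18.56 in LF ATF4 KO and 18.69, 18.71 and 18.77 in LF ATF4 WT, and TSUnmapped00000096.mm.1 had 18.57, 18.48 and 18.32 in LF ATF4 KO and 18.36, 18.48 and 18.49 in LF ATF4 WT. The second stood next to Rn28s1, a ribosomal RNA gene, by identifier order. The groups overlapped for both. The 6 brightest unnamed clusters all differed by between −0.06 and 0.03 and none was called. In all, 212 unnamed and 270 named clusters averaged above 16, more than a 16-bit scanner can record on a log2 scale, so the deposited values are not plain scanner brightness.

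A cluster was called at a limma adjusted p of at most 0.05, taken over all 65956 clusters, with a fold above 1.5. This called 985 unnamed clusters, 2.97% of them, against 6.75% of clusters with a symbol and 4.85% of all clusters. Falls outnumbered rises. Of the 985, 247 were higher in LF ATF4 KO (0.745%, against 3.83% of named and 2.28% of all clusters) and 738 were lower (2.23%, against 2.92% of named and 2.57% of all). Falls were thus 74.9% of the calls among unnamed clusters and 43.2% of those among named clusters. The median log2 difference was −0.02 over the unnamed and 0.02 over the named clusters. Past 2-fold lay 108 rises and 202 falls, past 4-fold 24 rises and 21 falls, and the called differences reached 4.0 and −3.89 with a median size of 0.82. The groups did not overlap in any called cluster, nor in 22.9% of all unnamed clusters, against 30.1% of all clusters.

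Falls outnumbered rises in every level bin with calls, and as a share of the bin most widely at middle brightness. Of the 4977 unnamed clusters with a mean log2 value of 6 to 10, 9.74% were called lower and 2.47% higher, the median difference was −0.15 and 71.7% had a difference below 0. Of the 9653 named clusters in the same range, 5.71% were called lower and 7.47% higher, with a median of 0.04 and 44.3% below 0. The mean over these unnamed clusters was 7.20, 7.16 and 7.09 in LF ATF4 KO and 7.25, 7.33 and 7.35 in LF ATF4 WT. Every LF ATF4 KO array lay below every LF ATF4 WT array, by −0.16 on average (two-sided exact permutation test, p = 0.1, the smallest possible). This range surrounds the levels where falls peaked in the same arrays, so the test is not independent of that peak. In the other level bins the median difference of unnamed clusters ran from −0.15 at 12 to 13 to 0.007 at 10 to 11. Over the named clusters of this range the mean was 7.87, 7.83 and 7.86 in LF ATF4 KO and 7.80, 7.80 and 7.78 in LF ATF4 WT, the other way round. Named and unnamed clusters together make up each array, and all arrays were set to the same quantiles. Their opposite movements are therefore not independent. Named long non-coding RNAs in this range also leaned down, with 21 of 274 called lower, 11 called higher and a median of −0.10, while of 6932 protein-coding clusters 461 were called lower and 613 higher. Below a level of 5, very few unnamed clusters were called, 21 higher and 28 lower of 13600 between 4 and 5. Of 7351 below 4, 0 were called by limma or by the methods' t-test, with 429 at an unadjusted p under 0.05. Replicates of unnamed clusters also scattered more, with a median SD of 0.15 in LF ATF4 KO and 0.13 in LF ATF4 WT at levels of 7 to 8, against 0.10 and 0.07 for named clusters in those same groups.

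**Figure D1:**
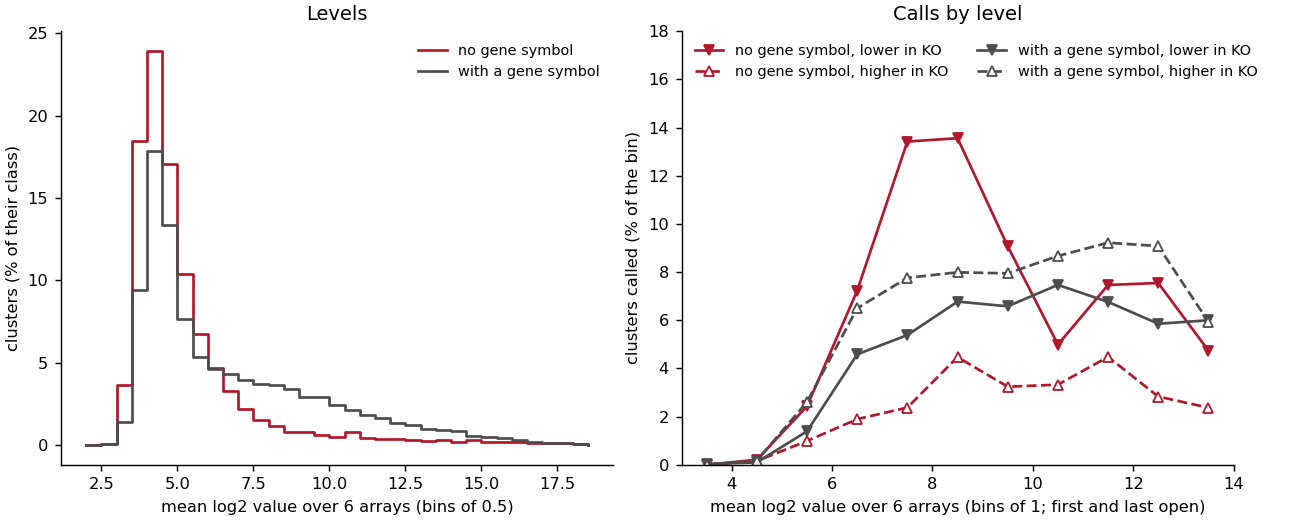
Left, share of clusters by mean log2 value over the 6 arrays, for clusters without and with a gene symbol, with the unnamed ones piled up between 3.5 and 5.5. Right, percentage of each level bin called lower (filled triangles) or higher (open triangles) in LF ATF4 KO, where falls among unnamed clusters reach 13.4% at levels 7 to 8 and 13.6% at 8 to 9, against 5.38% and 6.77% for named clusters.

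The excess of falls was spread over the genome. On 20 of 20 chromosomes (the autosomes and X) more unnamed clusters were called lower than higher, which was so for named clusters on 6 of 20. The share of unnamed clusters called ran between 1.81% on chromosome 14 and 4.02% on chromosome 11. Chromosomes 16 and 18 had the fewest rises among their calls, with 3 higher and 44 lower of 1183 on chromosome 16 and 2 higher and 29 lower of 1026 on chromosome 18. Rises and falls were nearly even on chromosome 13, with 18 higher and 19 lower of 1525, and on X, with 14 higher and 17 lower of 1371.

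**Figure D2:**
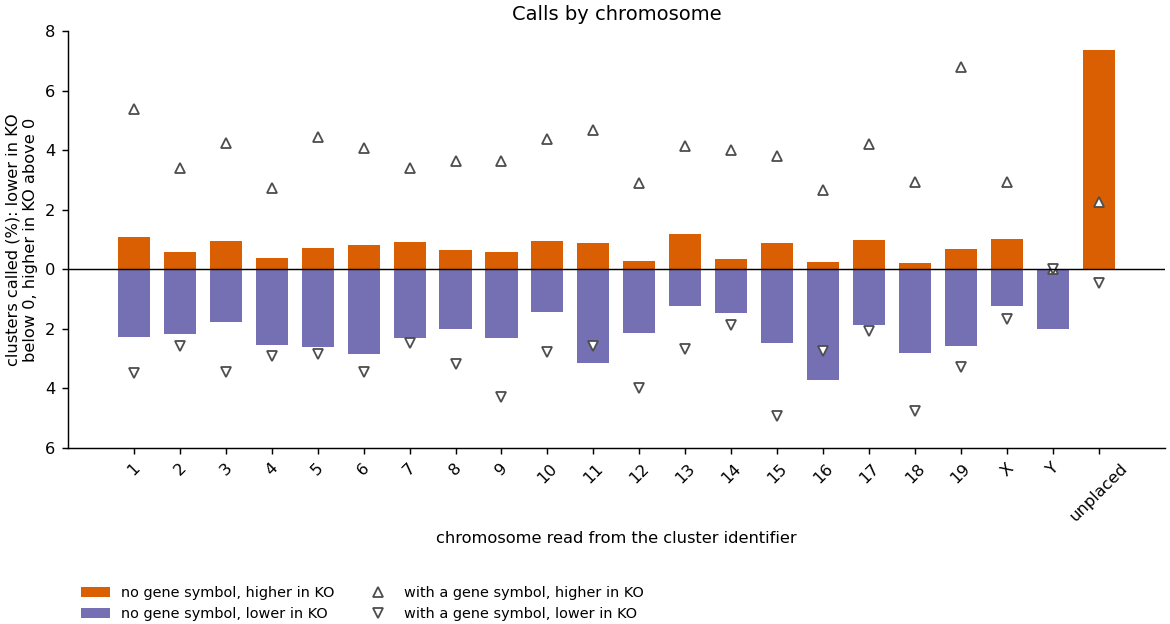
Percentage of unnamed clusters called higher (bars above 0) and lower (bars below 0) in LF ATF4 KO by chromosome, with triangles for named clusters; the mitochondrial genome is left out. The downward bars are longer than the upward ones on all 20 of the autosomes and X. Only the 122 unplaced unnamed clusters show rises alone, 9 of them with 6 different sets of values.

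The largest rise belonged to TC1500001828.mm.1 on chromosome 15. It had 12.62, 12.31 and 12.64 in LF ATF4 KO and 9.17, 8.35 and 8.04 in LF ATF4 WT, a difference of 4.0 (s.e. 0.27, 16-fold, limma adjusted p = 0.000259). The named clusters on its sides by identifier order were not called, Pvalb, a calcium-binding protein, at 0.08 and Tex33 at 0.03. TC1500000641.mm.1, also on chromosome 15, had 11.50, 11.20 and 11.69 in LF ATF4 KO and 8.61, 7.62 and 7.36 in LF ATF4 WT, a difference of 3.60 (s.e. 0.30). It followed Ncf4, a subunit of the phagocyte NADPH oxidase, which rose by 1.22. For both clusters LF ATF4 WT replicate 1 was the highest of its group, and the gap to the LF ATF4 KO arrays stayed wide.

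Of the other 6 of the 8 largest rises, 4 stood beside a named gene that also rose. TC0500000468.mm.1 rose by 3.24 (12.99, 12.32 and 12.85 in LF ATF4 KO, 9.76, 9.45 and 9.25 in LF ATF4 WT) after Bst1, an ADP-ribosyl cyclase first known from bone marrow stroma, which rose by 3.15. TC0700002949.mm.1 rose by 3.04 (11.32, 10.58 and 11.80 in LF ATF4 KO, 8.78, 8.10 and 7.68 in LF ATF4 WT) before Cd33, a sialic-acid-binding receptor of myeloid cells, which rose by 2.69. TC0300002283.mm.1 rose by 2.97 (10.52, 10.48 and 10.20 in LF ATF4 KO, 6.85, 7.47 and 7.97 in LF ATF4 WT) before Fcrls, an Fc receptor-like gene of macrophages and microglia, which rose by 3.71. TC0400002276.mm.1 rose by 2.76 (9.06, 8.44 and 8.60 in LF ATF4 KO, 6.33, 5.80 and 5.71 in LF ATF4 WT) after Atp6v0d2, a proton pump subunit of osteoclasts and macrophages, which rose by 2.27. The groups were far apart for all 4 clusters. TC0X00003437.mm.1 rose by 3.01 (10.89, 10.91 and 11.34 in LF ATF4 KO, 8.38, 7.82 and 7.92 in LF ATF4 WT). TC0700002617.mm.1 rose by 2.89 (10.50, 9.80 and 9.83 in LF ATF4 KO, 7.46, 7.07 and 6.94 in LF ATF4 WT). Neither had a called neighbour with a single symbol by identifier order. These rises came in the same arrays as the rise of the leukocyte markers given above, and the part of those cells in them was not tested. Next to a leukocyte marker itself, Cd53, a tetraspanin of leukocytes which rose by 3.01, TC0300002694.mm.1 rose by only 0.62 (5.96, 5.94 and 5.95 in LF ATF4 KO, 5.40, 5.44 and 5.15 in LF ATF4 WT), and by 0.53 without LF ATF4 WT replicate 3, under the fold threshold.

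The deepest fall belonged to TC1600000747.mm.1 on chromosome 16. It had 5.12, 5.95 and 4.85 in LF ATF4 KO and 8.41, 9.23 and 9.95 in LF ATF4 WT, a difference of −3.89 (s.e. 0.41, 14.8-fold, limma adjusted p = 0.00129). It followed Abi3bp, an extracellular matrix protein, which fell by 4.81. TC0600000011.mm.1 had 11.44, 10.75 and 11.94 in LF ATF4 KO and 14.19, 14.28 and 14.59 in LF ATF4 WT, a difference of −2.97 (s.e. 0.27). It followed Col1a2, a chain of type I collagen, which fell by 2.46. TC0700003649.mm.1 had 12.32, 12.37 and 12.82 in LF ATF4 KO and 14.99, 15.04 and 15.53 in LF ATF4 WT, a difference of −2.69, after Cemip, a hyaluronan-binding protein that fell by 2.04. In each of the 3 clusters the arrays of a group lay close together beside the distance between groups.

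TC0300002803.mm.1 had 6.0, 6.38 and 6.0 in LF ATF4 KO and 9.05, 9.50 and 9.28 in LF ATF4 WT, a difference of −3.15 (s.e. 0.14, limma adjusted p = 9.59e-05). Vcam1, the adhesion molecule just before it, differed by −0.57, short of the fold threshold. TC0200001265.mm.1 had 4.78, 4.82 and 4.78 in LF ATF4 KO and 7.29, 7.62 and 7.46 in LF ATF4 WT, a difference of −2.66. It stood between the olfactory receptor genes Olfr1033, which fell by 1.76, and Olfr1034, which fell by 2.04. TC1900000087.mm.1 had 9.37, 7.99 and 8.85 in LF ATF4 KO and 10.95, 11.29 and 11.84 in LF ATF4 WT, a difference of −2.62, with Ltbp3, a binding protein of latent TGF-beta, lower by −1.09 on one side and Slc25a45, a mitochondrial carrier, higher by 1.44 on the other. TC0400004057.mm.1 had 10.31, 10.93 and 10.40 in LF ATF4 KO and 12.90, 12.83 and 13.03 in LF ATF4 WT, a difference of −2.37, between Spsb1, an adaptor of ubiquitin ligases, at −0.91 and H6pd, an enzyme of the endoplasmic reticulum that makes NADPH, at −0.71. The groups stood clear of each other in each.

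**Figure D3:**
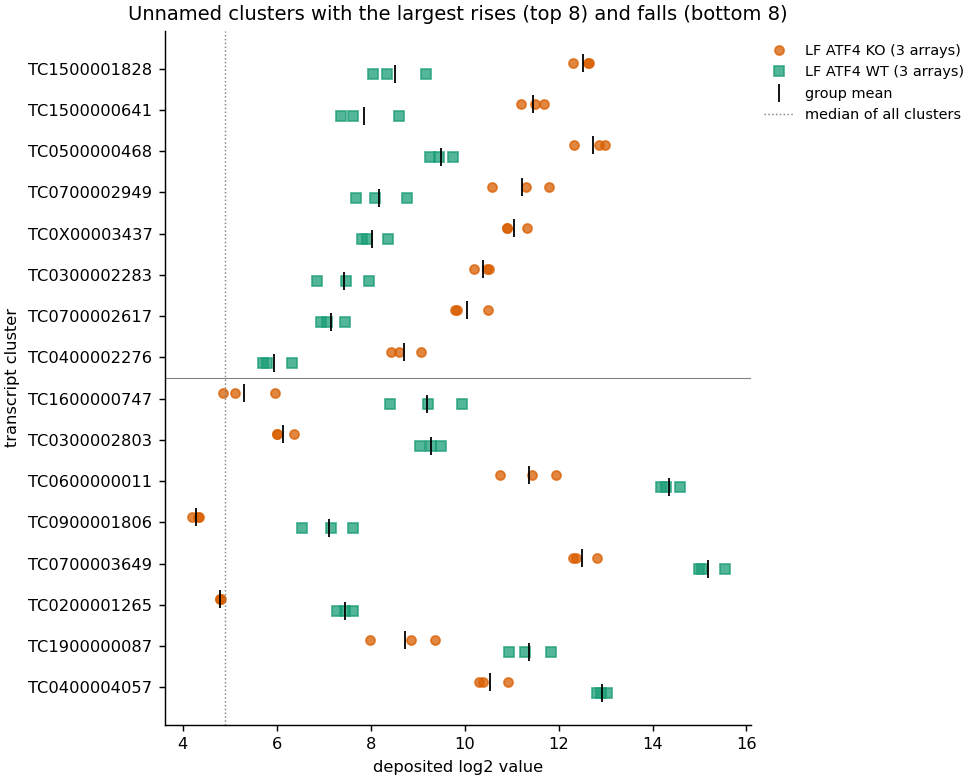
Deposited log2 value of each array for the 8 unnamed clusters with the largest rises and the 8 with the largest falls, with LF ATF4 KO (circles) above LF ATF4 WT (squares) in each row, bars for group means and a dotted line at the median of all clusters. The groups do not overlap in any of the 16 rows, and in TC1500001828.mm.1 the LF ATF4 KO arrays reach 12.31 to 12.64.

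The 4 brightest called unnamed clusters differed by less than 2-fold. TC0500001025.mm.1, after Mepe, had 18.18, 18.03 and 18.07 in LF ATF4 KO and 17.31, 17.19 and 17.03 in LF ATF4 WT, a difference of 0.92, while Mepe, a bone matrix gene, was at −0.10. TC0200003100.mm.1 had 17.59, 17.59 and 17.78 in LF ATF4 KO and 18.45, 18.34 and 18.35 in LF ATF4 WT, a difference of −0.73, near Abi1, an actin regulator, at −0.19. TC0400001297.mm.1 fell by 0.63 and TC0600002778.mm.1 by 0.64, both with groups apart.

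Identifier numbers gave the position of unnamed clusters among named genes. Within a chromosome the numbers ran along one strand and then along the other, in the order of gene starts in 99.1% of 18222 neighbouring pairs of single-symbol clusters that could be checked. A named neighbour is therefore the nearest single-symbol cluster by number on that chromosome, at most 10 numbers away. Unnamed clusters that fell had a named neighbour that also fell in 181 of 736 cases (24.6%) and one that rose in 10. Unnamed clusters that rose had a named neighbour that also rose in 76 of 246 cases (30.9%) and one that fell in 3. Of the neighbours of unnamed clusters that were not called, 3.39% fell and 3.69% rose. These shares were not matched for level. Neighbours had a median level of 5.83 beside uncalled clusters, 8.32 beside falls and 6.92 beside rises. Dimmer named clusters were called less often, 1.39% lower and 2.61% higher at levels of 5 to 6, against 6.77% and 7.99% at 8 to 9. How much of the contrast goes with brightness was not tested. For 470 of the 738 falls and 130 of the 247 rises, no named neighbour on either side was called. A gene on the other strand, or in a cluster with several symbols, could not count as a neighbour. These clusters may therefore still lie at a gene that changed.

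The likeness depended on the side. With the neighbour of lower number, 216 of 717 falls (30.1%) and 84 of 239 rises (35.1%) had a called partner in the same direction. With the neighbour of higher number, 60 of 709 falls (8.46%) and 33 of 243 rises (13.6%) did. Across pairs of clusters both at or above the median level, Pearson's r between the log2 differences and those of the neighbour of lower number was 0.44 at a distance of 1 (4421 pairs), 0.39 at 2 (2173 pairs), 0.32 at 3 to 5 (2314 pairs), 0.31 at 6 to 10 (692 pairs) and 0.08 at 11 to 20 (141 pairs). Towards the neighbour of higher number r was 0.22 at a distance of 1 (3820 pairs), 0.05 at 2 (1985 pairs), 0.01 at 3 to 5 (2153 pairs) and 0.05 at 6 to 10 (634 pairs). These correlations run across clusters of the same 6 arrays, several clusters can share a neighbour, and clusters are not independent replicates. Neighbours of lower number spanned a median of 42196 bases in RefSeq where the unnamed cluster fell, 18182 bases where it rose and 19772 bases where it was not called.

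**Figure D4:**
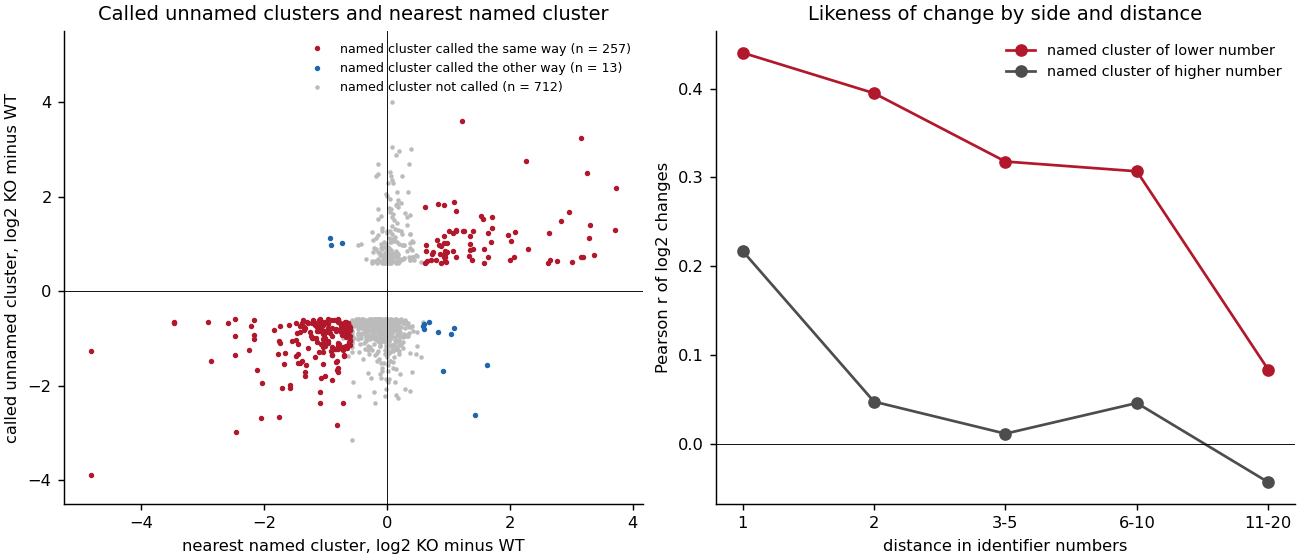
Left, log2 difference (LF ATF4 KO minus LF ATF4 WT) of each called unnamed cluster against that of its nearest named cluster, coloured by whether the named one was called the same way (181 falls and 76 rises), the other way (10 falls and 3 rises) or not at all. Right, Pearson's r of the differences by distance in identifier numbers, with r of 0.44 for the named cluster of lower number and 0.22 for that of higher number at a distance of 1.

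Some genes of the matrix, stress response and cell type lists had called unnamed neighbours. The counts below are small and stand beside the 2.97% called over all unnamed clusters. Of 29 measured collagen chains 14 were called lower, and of 45 unnamed clusters nearest to a collagen gene 3 (6.67%) were called, all lower, 1 of them also by the methods' t-test. Besides that of Col1a2, these were TC0100002279.mm.1 after Col5a2, a chain of type V collagen, and TC1100001449.mm.1 after Col1a1, the other chain of type I collagen. TC0100002279.mm.1 had 8.39, 8.51 and 8.59 in LF ATF4 KO and 9.22, 9.56 and 9.69 in LF ATF4 WT, a difference of −0.99, with Col5a2 at −1.16. TC1100001449.mm.1 had 5.31, 5.54 and 5.57 in LF ATF4 KO and 6.28, 5.98 and 6.38 in LF ATF4 WT, a difference of −0.74, with Col1a1 at −2.22. Both clusters kept their groups apart.

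Of 28 measured matrix glycoproteins 14 were called lower and 1 higher, and of 36 unnamed clusters nearest to one 3 were called lower and 1 higher (11.1% in all, 2 of the 4 also by the methods' t-test). TC0400002734.mm.1 followed Svep1, a large adhesion protein that fell by 1.71, and had 7.69, 8.73 and 8.01 in LF ATF4 KO and 9.83, 10.10 and 10.65 in LF ATF4 WT, a difference of −2.05. TC0100002545.mm.1 followed Fn1, fibronectin, and had 9.74, 9.94 and 9.55 in LF ATF4 KO and 11.36, 11.46 and 12.15 in LF ATF4 WT, a difference of −1.92, with Fn1 itself at −0.55 and short of the fold threshold. TC1100002196.mm.1 followed Igfbp3, an insulin-like growth factor binding protein that fell by 4.82, and was lower by −1.26 (4.40, 4.20 and 4.42 in LF ATF4 KO, 5.35, 5.71 and 5.74 in LF ATF4 WT). The cluster called higher, TC1300000085.mm.1, had 7.42, 6.93 and 7.30 in LF ATF4 KO and 6.31, 6.24 and 6.19 in LF ATF4 WT, a difference of 0.97. Its nearest named cluster was Nid1, a basement membrane protein that fell by 0.91. Nid1 had the higher number, the side on which changes were less alike, so the cluster cannot be assigned to that gene.

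Of 35 measured ATF4 targets 19 were called lower and 2 higher. Of 42 unnamed clusters nearest to one, 3 (7.14%, against 2.97% of all unnamed clusters) were called, all lower, each 1 number after its gene. The methods' t-test called 1 of the 42. TC0600002566.mm.1 was lower by −0.84 after Mthfd2, a mitochondrial folate enzyme that fell by 1.13 (5.77, 5.51 and 5.79 in LF ATF4 KO, 6.54, 6.35 and 6.69 in LF ATF4 WT). TC0300003195.mm.1 was lower by −0.78 after Cth, the cystathionine lyase that makes cysteine, which also fell by 1.13 (4.52, 4.96 and 4.69 in LF ATF4 KO, 5.63, 5.30 and 5.57 in LF ATF4 WT). TC0700000237.mm.1 was lower by −0.59 after Slc1a5, a glutamine transporter that fell by 1.09. That call sat at the fold threshold, and the difference was −0.58 without LF ATF4 KO replicate 1, −0.57 without LF ATF4 KO replicate 2 and −0.53 without LF ATF4 WT replicate 3. Each of these values missed it.

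Beside mesothelial genes 6 of 16 unnamed clusters (37.5%, against 2.97% of all) were called, all lower, and 2 of the 16 by the methods' t-test. The 16 clusters stood beside only 4 genes, and all 6 calls beside Muc16, Wt1 or Gpm6a. Those at Muc16 were next to each other and those at Gpm6a within 5 numbers. Calls at the same gene may report on 1 transcript, so the 6 are not separate places. TC0900001806.mm.1, near Muc16, a membrane mucin of mesothelium that fell by 0.82, had 4.19, 4.32 and 4.35 in LF ATF4 KO and 6.54, 7.16 and 7.63 in LF ATF4 WT, a difference of −2.82. TC0900001807.mm.1 beside it was at −1.68 and TC0900001805.mm.1 at −1.47. TC0200001577.mm.1, after Wt1, a transcription factor of mesothelium that fell by 2.11, had 4.64, 4.49 and 4.69 in LF ATF4 KO and 5.91, 6.23 and 6.71 in LF ATF4 WT, also a difference of −1.68. The other 2 were TC0800000593.mm.1 and TC0800000597.mm.1, lower by −0.67 and −0.66 beside Gpm6a, a membrane glycoprotein that fell by 3.46. The LF ATF4 KO values of the clusters beside Muc16 and Wt1 were below the median of all clusters. Mesothelial markers as a list fell in the same arrays, as given above, and the part of those cells was not tested. Beside epithelial markers 0 of 10 and beside endothelial markers 0 of 8 unnamed clusters were called by limma or by the methods' t-test, with 3 and 1 at an unadjusted p under 0.05. Beside leukocyte markers 1 of 10 was called, by both tests, the one at Cd53.

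Called unnamed clusters stood in runs. Counting called clusters of 1 direction as a run when each was at most 5 numbers from the next, the 738 falls made 558 separate places, with 287 clusters (38.9%) in 107 runs of at least 2. The 247 rises made 215 separate places, with 54 clusters (21.9%) in 22 runs. Members of a run may report on 1 transcript, so the places are a fairer count than the clusters. The longest run of rises held 5 clusters and the longest runs of falls 6, and 6 runs reached that length.

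The run of rises followed Osbpl8, a lipid transfer protein of the endoplasmic reticulum, on chromosome 10, and Osbpl8 rose by 1.35. Its clusters TC1000001287.mm.1 to TC1000001291.mm.1 rose by 0.71 to 1.17. The steepest, TC1000001289.mm.1, had 8.19, 7.62 and 7.59 in LF ATF4 KO and 6.32, 6.75 and 6.82 in LF ATF4 WT. The named cluster after the run, Bbs10, a chaperonin-like gene of cilia, was at 0.07.

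In 3 of the 6 runs of falls the gene just before the run also fell. After Pdzrn3, a ubiquitin ligase gene on chromosome 6 at −0.89, all of TC0600002862.mm.1 to TC0600002867.mm.1 were lower by −1.19 to −1.88, while Cntn3, a contactin on the far side, was at −0.01. The first of them had 8.02, 8.43 and 8.37 in LF ATF4 KO and 9.88, 10.18 and 10.41 in LF ATF4 WT. The second, TC0600002863.mm.1, lost its call without LF ATF4 KO replicate 1 (limma adjusted p = 0.057), LF ATF4 KO replicate 3 (0.054) or LF ATF4 WT replicate 2 (0.052). After Meis1, a homeobox gene on chromosome 11 at −1.05, TC1100002270.mm.1 to TC1100002275.mm.1 were lower by −0.66 to −1.28, and the steepest, TC1100002274.mm.1, had 6.72, 6.62 and 6.55 in LF ATF4 KO and 7.54, 8.12 and 8.07 in LF ATF4 WT. All 6 of those calls held without any single array. After Pcdh7, a protocadherin on chromosome 5 at −0.97, 6 of 9 clusters were called, at −0.60 to −1.10. The first of them, TC0500000561.mm.1, had 8.24, 7.99 and 8.16 in LF ATF4 KO and 8.98, 9.27 and 9.45 in LF ATF4 WT. Of the Pcdh7 run, TC0500000562.mm.1, TC0500000563.mm.1 and TC0500000569.mm.1 each lost the call without LF ATF4 KO replicate 1, LF ATF4 WT replicate 2 or LF ATF4 WT replicate 3, at differences of −0.53 to −0.76, and the second of these also without LF ATF4 KO replicate 3, at −0.68.

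On chromosome 2 the run lay on both sides of 5031426D15Rik, itself an unstudied cDNA, at −0.57 (limma adjusted p = 0.071, not called). Its 6 clusters were lower by −0.70 to −1.09, and TC0200002912.mm.1 had 5.94, 6.22 and 6.46 in LF ATF4 KO and 7.13, 7.29 and 7.47 in LF ATF4 WT. TC0200002906.mm.1, TC0200002911.mm.1 and TC0200002914.mm.1 missed the threshold without LF ATF4 WT replicate 2 (limma adjusted p of 0.060, 0.059 and 0.071), the last pair of them also without LF ATF4 KO replicate 1 (0.078 and 0.066) and TC0200002911.mm.1 without LF ATF4 KO replicate 3 (0.066).

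The run at the start of chromosome 9 had no named cluster before it and was by far the brightest, with mean levels of 13 to 13.9. TC0900000004.mm.1 had 13.73, 13.34 and 13.41 in LF ATF4 KO and 14.01, 14.46 and 14.21 in LF ATF4 WT, the largest difference of the run at −0.73. In every cluster of the run LF ATF4 KO replicate 1 was the highest of its group and LF ATF4 WT replicate 1 the lowest of its own, and in TC0900000008.mm.1 they stood only at 12.95 and 13.05. That closeness showed when arrays were left out. TC0900000004.mm.1 kept its call without any single array. TC0900000005.mm.1 to TC0900000008.mm.1 missed the threshold without LF ATF4 KO replicate 2, LF ATF4 KO replicate 3, LF ATF4 WT replicate 2 or LF ATF4 WT replicate 3, at limma adjusted p between 0.056 and 0.129. TC0900000002.mm.1 also missed it without LF ATF4 KO replicate 2 (difference −0.55), LF ATF4 WT replicate 2 (−0.57) or LF ATF4 WT replicate 3 (adjusted p = 0.060). The first named cluster after the run, Alkbh8, a tRNA methyltransferase gene, was at 0.07.

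The run on chromosome 12 lay in a stretch of small RNA genes. It began 1 number after Mir136 and ran past Mir341, Mir1188 and Mir370 and the small nucleolar RNA entries AF357426 and DQ267102. These microRNAs belong to the imprinted Dlk1-Dio3 domain, where the maternal chromosome makes a long non-coding RNA that holds microRNAs and small nucleolar RNAs. TC1200001140.mm.1 had 9.25, 8.40 and 9.97 in LF ATF4 KO and 11.09, 11.23 and 11.73 in LF ATF4 WT, a difference of −2.14 (s.e. 0.37), and TC1200001150.mm.1 had 7.74, 7.71 and 8.87 in LF ATF4 KO and 9.78, 9.88 and 10.20 in LF ATF4 WT, a difference of −1.85. The other 4 called clusters of the run were lower by −0.60 to −1.79. The LF ATF4 KO arrays scattered widely here, with replicate 2 the lowest in each of the 6 clusters. Among the single-symbol clusters in and next to the run AF357426 fell by 1.07, DQ267102 by 1.33 and Gm24564, listed in RefSeq as a small nucleolar RNA, by 2.45. Mir136 at −0.21, Mir341 at −0.25, Mir1188 at −0.02 and Mir370 at 0.13 were not called. Also inside the run, TC1200001142.mm.1, which carries Rian and other symbols such as AF357355 and DQ267100, was called lower at −1.59. TC1200001152.mm.1 and TC1200001153.mm.1 missed the threshold without LF ATF4 KO replicate 1, LF ATF4 WT replicate 2 or LF ATF4 WT replicate 3, at limma adjusted p between 0.061 and 0.10. TC1200001154.mm.1 missed it without LF ATF4 WT replicate 3 (0.054), and TC1200001145.mm.1 fell short of the fold threshold without that array (−0.52) or without LF ATF4 KO replicate 2 (−0.55).

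**Figure D5:**
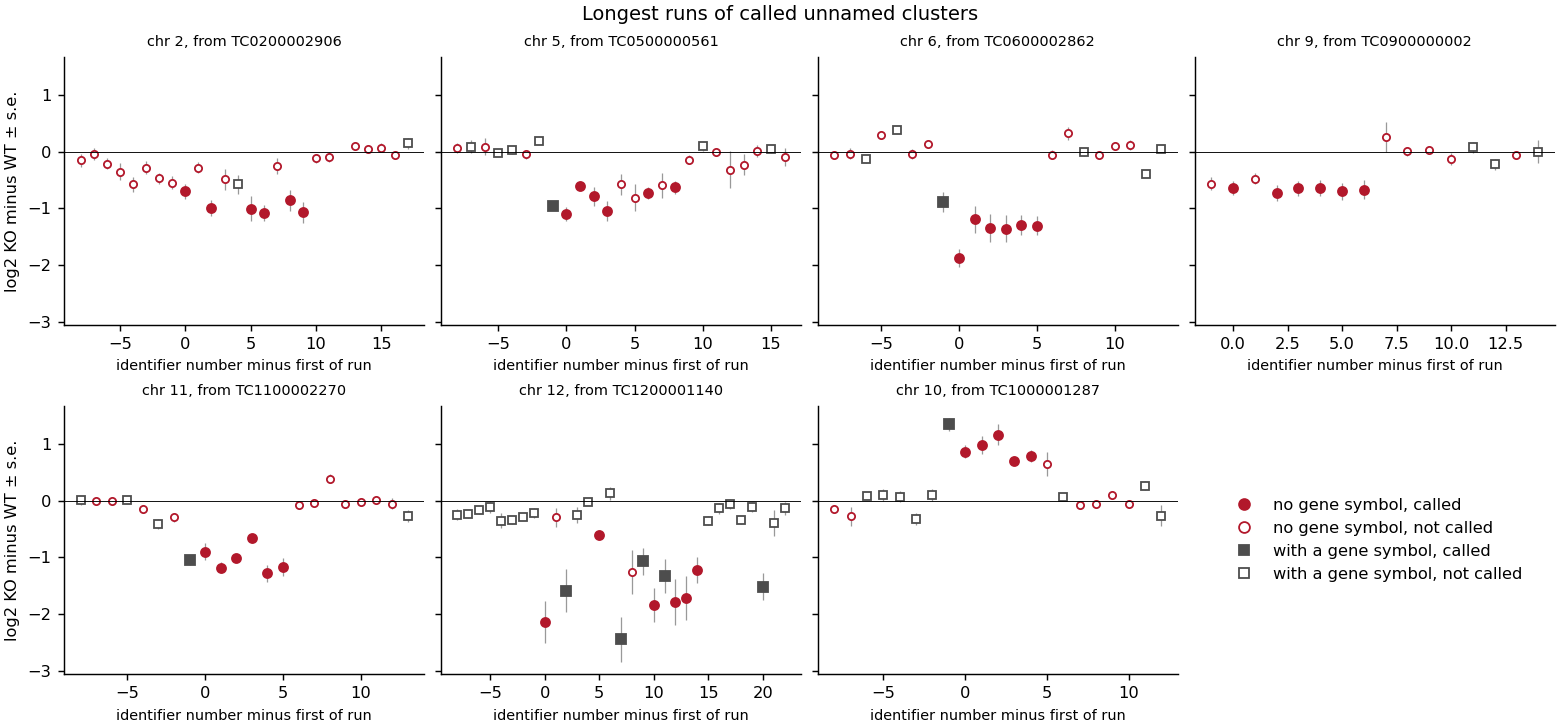
Log2 difference (LF ATF4 KO minus LF ATF4 WT, with limma's s.e.) against identifier number, counted from the first cluster of the run, for the 6 longest runs of falls and the longest run of rises, with circles for clusters without a symbol, squares for clusters with one, and filled marks for called clusters. The runs after Pdzrn3, Meis1, Pcdh7 and Osbpl8 start just after a called named gene, and the run on chromosome 12 mixes called and uncalled clusters of both kinds.

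There were 10 further runs of 4 or 5 falls, and in 7 of them the named cluster of lower number before the run was called lower too. In the other 3 it was not, with Lrrc52 at 0.06 before 5 falls on chromosome 1, Rbpms before 5 on chromosome 8 and Rbms3 at −0.48 before 4 on chromosome 9. Near Muc16 on chromosome 9, 5 clusters fell, at −0.95 to −2.82. After Setbp1, a DNA-binding protein gene on chromosome 18 at −1.45, 5 clusters were at −0.84 to −1.52. After Cxadr, a cell junction protein on chromosome 16 at −2.48, 4 clusters were at −0.60 to −1.35. After Tshz3, a zinc finger gene on chromosome 7 at −0.71, 4 clusters were at −0.86 to −1.25. After Rbpms, an RNA-binding protein gene on chromosome 8 that was not called itself at −0.34, 5 clusters were at −0.59 to −1.43. These last genes, like Nid1, Gpm6a, Gm24564 and Rian, were picked out after their values were seen.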

How the data were processed

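Total RNA of passage 2 lung fibroblasts was measured on Clariom D mouse arrays, 1 per sample, with 3 arrays per genotype. Per the study's methods the authors imported the scanner files into the Transcriptome Analysis Console and processed them by RMA, which removes background, sets all arrays to the same quantiles and summarises the probes of each cluster, and the values used here are the deposited log2 values, from 2.38 to 18.88. A change in total RNA cannot be seen after such scaling. Precision is limited by the number of arrays. The array's annotation version is not given in the sources used here, and no cluster sequence or genome position was used.

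Symbols came from the platform's probe table, updated through RefSeq genes of GRCm38.p6, which also served to check that identifier numbers follow gene order. Of clusters with a symbol, 31292 had 1 and 1522 several. Only Rian, AF357355 and DQ267100, all of TC1200001142.mm.1, were named from a cluster with several. Of the unnamed clusters 826 shared all 6 values with another cluster.

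Using limma 3.58.1 (R 4.3.3), lmFit and eBayes were run on all 65956 clusters with a term for genotype, and p-values were adjusted by Benjamini-Hochberg. Calls needed adjusted p at or below 0.05 and more than 1.5-fold, the study's thresholds. Its array methods name no test. Standard errors are limma's moderated ones. The labels call the arrays biological replicates, but cells of several mice were pooled, so the p-values reflect only how far these cultures differed. The fit was tested on simulated data in which 200 unnamed clusters at or above the median level were given a change. At adjusted p at most 0.05 it recovered 34.3% of changes of 1.5-fold, 76.1% of 2-fold and 98.5% of 4-fold. It also called 4 clusters without a change. No dimmer cluster was given one, so recovery among those is not known. Counts by level, chromosome, neighbour and run carry no test, and single values over arrays were compared by exact permutation.

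Clusters named were the 8 largest rises and 8 largest falls among called clusters with separated groups and a higher group at or above the median of all clusters, the 6 brightest, the 4 brightest called ones, up to 3 called ones beside genes of each of 8 lists (fibroblast, leukocyte, mesothelial, epithelial and endothelial markers, collagen chains, matrix glycoproteins, ATF4 targets), and members of the longest runs. Members and lists were chosen with earlier results of these data known. The alternatives were another test or threshold, a replicate block, a filter on dim clusters, centring on named clusters and leaving out each array, and, added after seeing the data, counting identical clusters once and each side of the neighbour alone.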

Additional observations from a re-analysis of the deposited data

How the results depend on the processing

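None of the 72 named called clusters changed its sign under any alternative, but that was fixed in advance for nearly all of them. Their groups did not overlap, so leaving out 1 array could not reverse the difference. The other tests and thresholds, the block and the filter leave the difference as it is. Only centring could shift it. Of the 6 brightest, none called and all near 0, 5 changed sign without some array. The count of called unnamed clusters was 985 (247 higher, 738 lower). The methods' t-test called 319 (97 higher, 222 lower), limma's treat against 1.5-fold 155 (63 higher, 92 lower), and dropping the fold threshold gave 2627 (681 higher, 1946 lower). Leaving out 1 array gave between 758, without LF ATF4 WT replicate 3, and 1116, without LF ATF4 WT replicate 1 (210 to 262 higher, 548 to 893 lower). Trend and robust fitting (989), a filter on dim clusters (1015), centring on named clusters (1034) and counting identical clusters once (953) stayed within 1.5 times. Replicate numbers did not pair the samples, with correlations of same-numbered deviations of −0.04, −0.01 and −0.22. With the replicate number as a block 902 were called (241 higher, 661 lower), 874 of them among the 985.

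The median gap between unnamed and named clusters, −0.92, was −0.94 in LF ATF4 KO arrays only, −0.90 in LF ATF4 WT arrays only, −1.47 with means in place of medians and −1.65 against single symbols other than Gm, Rik, Mir and Snor names. It stayed between −0.93 and −0.92 without any 1 array. At or above the 75th percentile lay 12.7% of unnamed clusters, against 39.8% at or above the median. The share of neighbours that fell with a falling cluster, 24.6%, was 30.1% on the lower number side and 8.46% on the higher, and for rises, 30.9%, it was 13.6% on the higher number side. Of 72 named called clusters 52 missed the threshold under at least 1 alternative, 43 of them under the methods' t-test and 50 under treat, and 18 without some array. Brightness below about 5 limits what could be called.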

Other observations

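Of 300 unnamed clusters on Y, with a median level of 3.96, 6 (2.0%, against 2.97% of all unnamed clusters) were called, all lower in LF ATF4 KO, with none by the methods' t-test. These 6 held only 4 different sets of values. TC0Y00000130.mm.1 and TC0Y00000131.mm.1 shared every value with TC0100001056.mm.1 on chromosome 1. TC0Y00000018.mm.1 shared every value with TC0300000101.mm.1 on chromosome 3. The falls of these clusters cannot be assigned to Y alone. TC0Y00000018.mm.1, 1 of the 6, had 6.98, 6.69 and 6.50 in LF ATF4 KO and 7.24, 7.67 and 7.69 in LF ATF4 WT, a difference of −0.81 (limma adjusted p = 0.015). The 19 unnamed mitochondrial clusters had a median level of 12.4 and 0 were called by limma or by the methods' t-test, with 4 at an unadjusted p under 0.05. In TC0M00000015.mm.1 the values were 10.54, 10.13 and 10.32 in LF ATF4 KO and 9.73, 9.61 and 7.88 in LF ATF4 WT, where replicate 3 lay far below the other two. Of 122 unplaced unnamed clusters 9 (7.38%, against 2.97% of all unnamed clusters) were called, all higher, and 4 of the 122 by the methods' t-test. These 9 held only 6 different sets of values.

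Rows with the same 6 values recurred among the unnamed clusters. In all, 815 of them fell into 196 groups that shared every value with another unnamed cluster, the largest of 63 clusters, so that 33142 clusters held 32523 different sets of values. Of the called clusters 45 lay in 13 such groups. Counted once per set of values, 241 were higher and 712 lower. The bright cluster TC0400001746.mm.1, on chromosome 4, had the same values as TC0900002348.mm.1 on chromosome 9.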
